A study of Homo sapiens with 12 samples.

Results

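The 34 genes described here encode the enzymes of cholesterol and fatty acid synthesis, the proteins that control the sterol regulatory element-binding proteins (SREBPs), and a few carriers of sterol. They were chosen by symbol from a table of estimated RNA sequencing counts for 23500 genes, and where a symbol had several entries the one with the highest summed count was kept. By role they comprise 18 sterol synthesis enzymes, GGPS1 of the isoprenoid branch, 8 fatty acid enzymes, 4 SREBP regulators and 3 genes of sterol transport. The study asked how cells respond when methionine is replaced by homocysteine, the precursor from which cells remake methionine. RNA was taken after 12 h in culture from HEK293T cells, a transformed human embryonic kidney line that depends on methionine, and from R1, a line that grows without it and was selected from HEK293T. Each line was kept with methionine (+Met) or with homocysteine in its stead (−Met+Hcy), which made 4 groups with 3 libraries each. All 4 groups received the same base medium with dialyzed serum, glutamine, cysteine and cobalamin, so that they differed by line and by methionine or homocysteine. R1 is a selected clone, and a difference between it and HEK293T cannot be told apart from a difference between any clone and its parent population. Although 6 libraries carry R1 in their titles, their cell line is labelled HEK293T, and they were assigned by title. The labels do not say whether replicates came from separate cultures, so the p-values measure the spread between these libraries, which may be technical.

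Cholesterol is built from acetyl-CoA through mevalonate, farnesyl diphosphate, squalene and lanosterol, and fatty acids are built from the same acetyl-CoA through malonyl-CoA. SREBP precursors sit in the membrane of the endoplasmic reticulum bound to SCAP, and INSIG proteins hold that complex there while sterols are plentiful. When membrane sterol falls, SCAP carries the precursors to the Golgi, where proteases release the fragment that enters the nucleus and activates the genes of both pathways. The product of SREBF2 acts mainly on sterol genes and that of SREBF1 mainly on fatty acid genes, and INSIG1 is itself a target, which closes a feedback loop.

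Promoter sequence from RefSeq (GRCh38.p14) was at hand for 30 of the 34 genes, all but ACAT2, FASN, FDFT1 and SQLE. For each of the 30 the window nearest the start of the canonical transcript was taken, and that of FADS2 lay 11896 bases from it. The 35116 windows used for comparison were not chosen in this way, so the shares are not fully alike. In the 250 bases before the start of transcription, on either strand, the CCAAT box (letters CCAAT, bound by NF-Y, a partner of the SREBPs) was found in 19 of these 30 (63.3%), against 32.0% of all 35116 windows of the table. The letters TCACNCCAC, a form of the sterol regulatory element, were found in 1 of 30, SREBF2, against 0.883% of windows. The E-box CACGTG, which SREBPs can also bind, was found in 4 of 30 (13.3%; ABCA1, INSIG1, SC5D and SCAP) against 6.34%, and the GC box GGGCGG in 29 of 30 (96.7%) against 42.6%. These are matches of letters and not measured binding sites, and the motifs were counted independently of one another. Other forms of the sterol regulatory element were not searched for. Upstream sequence is shown for SREBF2, the gene with the letters TCACNCCAC, and for 4 genes on which the comparisons below turn. These are INSIG1, HMGCS1 and IDI1, which fell in HEK293T cells, and MVD, whose test lay at the threshold. Capitals mark that form of the sterol regulatory element, a CCAAT box (ATTGG on the other strand) or an E-box. Annotated exons of protein-coding transcripts were left out, and the stretch of MVD reaches into the annotated span of the gene. The E-box of INSIG1 and 1 of the 2 CCAAT boxes of HMGCS1 and of IDI1 lie outside the stretches shown.
SREBF2: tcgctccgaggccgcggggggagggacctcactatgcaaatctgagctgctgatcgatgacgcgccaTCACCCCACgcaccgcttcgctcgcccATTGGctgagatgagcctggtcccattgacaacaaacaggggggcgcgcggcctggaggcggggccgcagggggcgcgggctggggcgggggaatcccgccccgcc
INSIG1: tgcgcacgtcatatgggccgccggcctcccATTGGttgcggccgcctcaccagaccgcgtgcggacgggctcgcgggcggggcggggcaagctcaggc
HMGCS1: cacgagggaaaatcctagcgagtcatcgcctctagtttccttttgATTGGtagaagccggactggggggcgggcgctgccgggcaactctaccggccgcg
IDI1: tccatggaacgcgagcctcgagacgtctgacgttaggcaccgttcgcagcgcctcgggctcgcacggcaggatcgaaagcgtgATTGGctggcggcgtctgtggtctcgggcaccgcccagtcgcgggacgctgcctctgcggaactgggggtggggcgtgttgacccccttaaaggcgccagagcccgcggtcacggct
MVD: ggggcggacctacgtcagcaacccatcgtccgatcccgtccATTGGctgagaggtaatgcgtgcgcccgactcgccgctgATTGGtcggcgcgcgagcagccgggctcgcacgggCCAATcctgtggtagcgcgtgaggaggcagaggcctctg
The stretches are chr22:41832905-41833104, plus strand for SREBF2, chr7:155297678-155297775, plus strand for INSIG1, chr5:43313513-43313612, minus strand for HMGCS1, chr10:1049120-1049319, minus strand for IDI1 and chr16:88663138-88663291, minus strand for MVD. SREBF2 holds that form of the sterol regulatory element and a CCAAT box within a short distance of each other, and MVD holds 3 CCAAT boxes.

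Library totals ran from 12664158 to 18771349 counts, and the 34 genes together took 0.302 to 0.607% of them. Values per library are given as CPM, the counts scaled to the library total, and tests used edgeR's quasi-likelihood model with TMM scaling, with Benjamini-Hochberg adjustment over all 17162 genes tested. That adjusted p is written "edgeR adjusted p", a gene is said to rise, fall or be called where it is under 0.05, and a log2 fold change is the model's. All 34 genes passed the filter on low counts. The scaling matters for directions: in HEK293T cells the median log2 difference of all genes between the media was 0.306 in CPM and 0.0342 after TMM scaling, and between the lines in +Met it was 0.336 in CPM and 0.0191 after scaling. In the HEK293T medium comparison 5 of the 34 genes had another direction in CPM than in the model (MVK, EBP, ELOVL6, SCD and STARD4), in R1 cells 1 (GGPS1), between the lines in +Met 4 (ACAT2, MVK, GGPS1 and FASN) and in −Met+Hcy 1 (EBP). None of these was called. Of the HEK293T markers, VIM, KRT8, KRT18 and NEFM were detected and PAX2 was low in HEK293T cells, while the summed level of 5 MDA-MB-468 markers was at most 0.461 CPM in any library, that of 3 blood cell markers at most 3.89 CPM and that of 2 hepatocyte markers at most 0.855 CPM.

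Replicate 3 of R1 in −Met+Hcy stood apart from its group in a way that followed base composition. It had a count for 13936 genes, against 16216 to 17065 in the other libraries. Its difference from the mean of the other replicates fell with the GC content of the transcript, with a Spearman's rho of −0.74 over 11618 genes and −0.88 over the 34 genes, as a description. In the 3 other groups the same measure ran from −0.33 to 0.54 over all genes and from −0.64 to 0.73 over the 34, with both ends of the second range in R1 +Met (replicates 2 and 1). Its log2 difference from the mean of replicates 1 and 2 was −2.85 for FASN, −2.68 for LSS, −2.46 for SREBF1 and −2.02 for TM7SF2, and it was 1.16 for SC5D and 0.87 for STARD4. LSS has a second entry with 2257 counts in all against 6867 for the one used, so that reads may be split between them. Of the 15 genes with a GC content over 50%, 14 lay below the other replicates, and of the 19 others 7 did. FADS2 was the exception among the GC-rich genes. Because all groups share one estimate of the spread, this library also widened the errors of comparisons it did not enter: without it the common dispersion fell from 0.109 to 0.0349. Counts of called genes are therefore given with and without it.

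**Figure D1:**
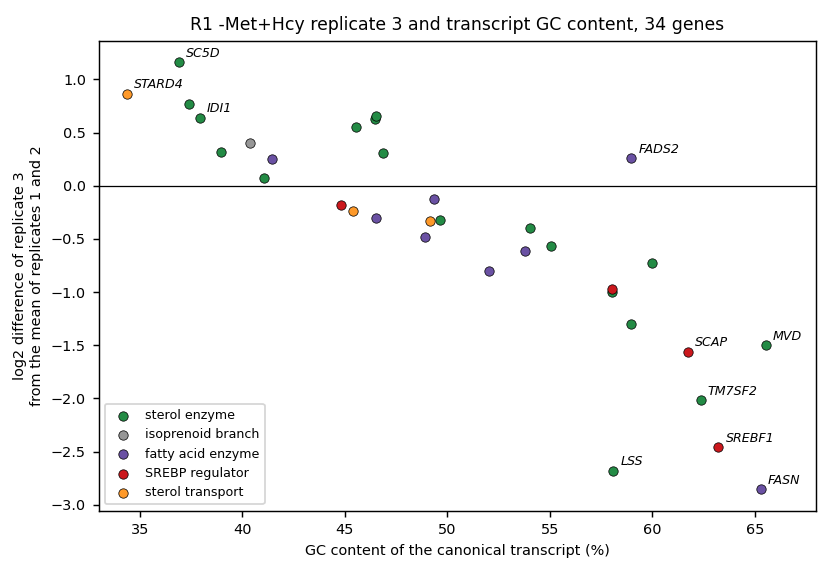
Difference of R1 −Met+Hcy replicate 3 from the mean of replicates 1 and 2 (log2 CPM after TMM scaling, y axis) against the GC content of the canonical transcript in percent (x axis), with 1 point for each of the 34 genes coloured by role. FASN (−2.85) and LSS (−2.68) lie lowest, SC5D (1.16) and STARD4 (0.87) highest, and 14 of the 15 genes over 50% GC lie below 0.

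In HEK293T cells in +Met, levels per kilobase of transcript differed widely among the genes. ACLY, which makes cytosolic acetyl-CoA from citrate, had 132.5 CPM per kilobase, ACAT2, which joins acetyl-CoA units at the entry to the sterol pathway, 126 and FDPS, the farnesyl diphosphate synthase, 112. FASN, the fatty acid synthase, had 82.1 and SCD, the stearoyl-CoA desaturase, 59.4. At the other end were FADS2 with 1.85 and the cholesterol exporter ABCA1 with 0.069 CPM per kilobase. ACLY and ACAT2 are neighbours in this order, which was not tested. Before division by length, the spread was 45.5 CPM around a mean of 569 CPM for ACLY and 12.6 CPM around 192 CPM for ACAT2 (SD, n = 3).

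**Figure D2:**
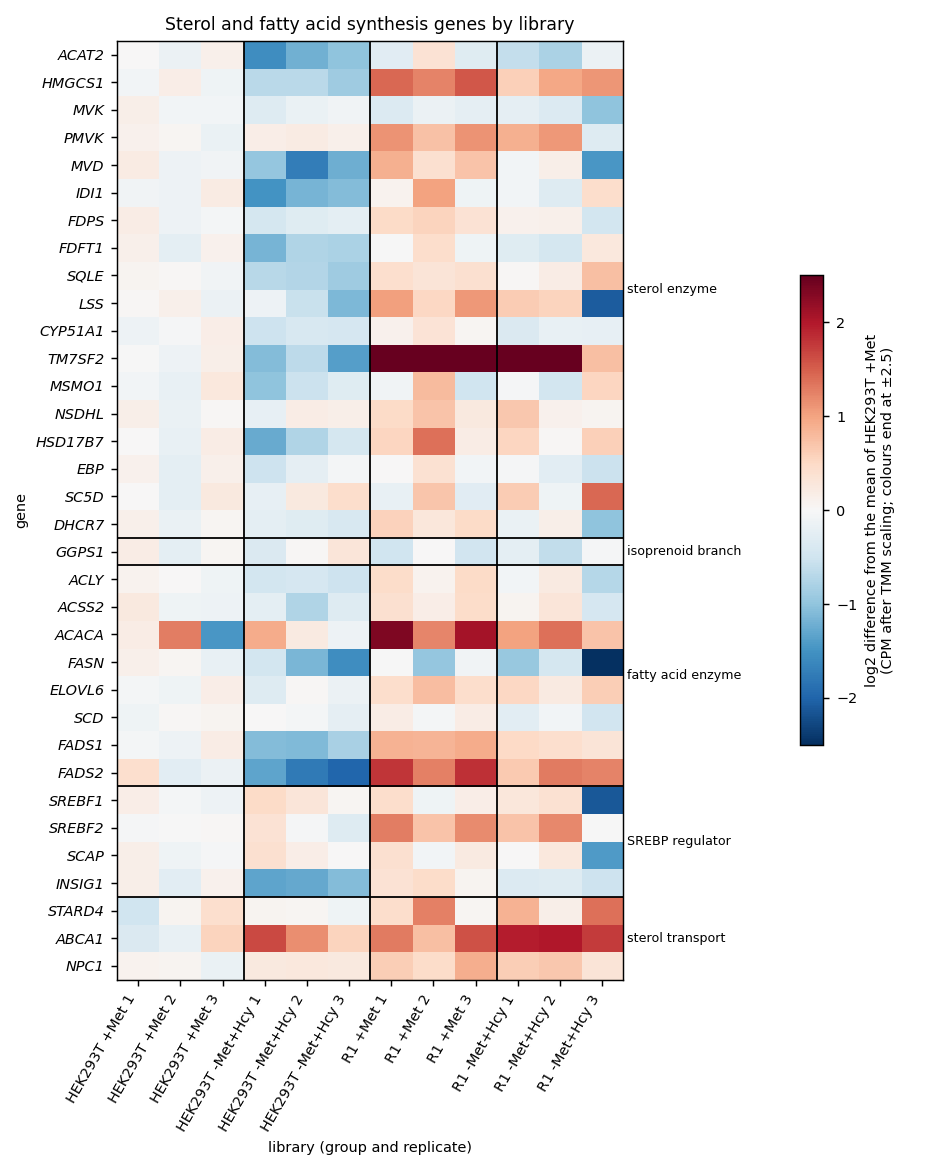
Log2 difference of each of the 34 genes (rows, grouped by role) from its mean in HEK293T +Met, for the 12 libraries (columns), after TMM scaling, on a colour scale that ends at ±2.5. Most sterol enzymes are blue in the 3 HEK293T −Met+Hcy libraries, TM7SF2, HMGCS1 and FADS2 are red in R1, and R1 −Met+Hcy replicate 3 differs from the other replicates of its group for FASN, LSS, SREBF1 and TM7SF2.

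In HEK293T cells, 8 of the 34 genes fell and none rose when homocysteine replaced methionine. They were 5 sterol synthesis enzymes (ACAT2, HMGCS1, IDI1, FDFT1 and SQLE), both fatty acid desaturases of the polyunsaturated pathway (FADS1 and FADS2) and the feedback regulator INSIG1. Over all genes tested 2.78% fell and 4.25% rose. At an unadjusted p under 0.05, 12 of the 34 were lower (9.49% of all genes) and 1 higher (12.9%), and DESeq2 called 10 lower (5.52%) and 0 higher (7.52%). With a log2 fold change beyond 1 as well, 5 of the 34 fell (ACAT2, IDI1, FADS1, FADS2 and INSIG1), against 1.59% of all genes. The log2 fold change was below 0 for 24 of the 34, with a median of −0.38 against 0.034 for all genes. After TMM scaling the libraries of both media did not overlap for 19 genes that were lower in −Met+Hcy (20.6% of all genes) and 3 that were higher (24.8%). In CPM these numbers were 11 (9.8%) and 6 (38.6%). Without R1 −Met+Hcy replicate 3, 13 of the 34 fell, against 12.5% of all genes, and 1 rose, ABCA1, against 15.2%. With a log2 fold change beyond 1 these were 7 (3.56%) and 1 (6.77%), and at an unadjusted p under 0.05 they were 18 (18.3%) and 1 (21.8%).

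INSIG1 (ENSG00000186480, chr7:155297776-155310235), which retains the SREBP precursors in the endoplasmic reticulum, had 36.3, 29.3 and 35.9 CPM in HEK293T cells in +Met and 17.3, 17 and 18.4 CPM in −Met+Hcy. All 3 libraries in −Met+Hcy lay below all 3 in +Met, and they lay close together. The log2 fold change was −1.24 ± 0.19 (SE, edgeR adjusted p = 0.00346), and INSIG1 was called in all 21 alternative analyses.

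Among the sterol enzymes, the genes that fell span the pathway from its first step to the epoxidation of squalene. ACAT2 (ENSG00000120437, chr6:159762045-159779112) had 189, 181 and 206 CPM in +Met and 84.2, 103 and 112 CPM in −Met+Hcy. Its groups were well separated, and the log2 fold change was −1.23 ± 0.24 (SE, edgeR adjusted p = 0.0119). HMGCS1 (ENSG00000112972, chr5:43287470-43313512), which condenses acetoacetyl-CoA and acetyl-CoA, had 54.4, 68.4 and 53.1 CPM in +Met and 46.7, 44.8 and 36.7 CPM in −Met+Hcy. The groups did not overlap, although the nearest libraries were only a few CPM apart, and the log2 fold change was −0.75 ± 0.18 (SE, edgeR adjusted p = 0.03). IDI1 (ENSG00000067064, chr10:1039152-1049119), the isomerase that makes dimethylallyl diphosphate, had 112, 116 and 136 CPM in +Met and 54.6, 66.2 and 66.5 CPM in −Met+Hcy. Every library in −Met+Hcy was far below every library in +Met, with a log2 fold change of −1.25 ± 0.30 (SE, edgeR adjusted p = 0.0271).

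FDFT1, the squalene synthase at which the pathway commits to sterols, had 195, 161 and 194 CPM in +Met and 104, 133 and 124 CPM in −Met+Hcy, with a log2 fold change of −0.90 ± 0.23 (SE, edgeR adjusted p = 0.0394). These values are those of the entry ENSG00000284967, and FDFT1 has a second entry with 3686 counts in all against 36664, so that reads may be split between them. SQLE (ENSG00000104549), the squalene monooxygenase, had 139.5, 146 and 126 CPM in +Met and 108, 101 and 87.0 CPM in −Met+Hcy. Neither gene overlapped between the media, and the log2 fold change of SQLE was −0.77 ± 0.20 (SE, edgeR adjusted p = 0.0352). The calls of the 5 sterol enzymes depended on the analysis more than that of INSIG1 did: of 21 alternatives, ACAT2 was called in 17, IDI1 in 14, HMGCS1 in 13, SQLE in 12 and FDFT1 in 11, always with a negative fold change.

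MVD (ENSG00000167508, chr16:88651935-88663161), the mevalonate diphosphate decarboxylase, had 25.7, 21.7 and 21.2 CPM in +Met and 14.9, 8.34 and 11.4 CPM in −Met+Hcy. Its groups did not overlap, and its log2 fold change of −1.29 ± 0.36 (SE, edgeR adjusted p = 0.0504) lay just outside the threshold. Without R1 −Met+Hcy replicate 3 the edgeR adjusted p of MVD was 0.00073. TM7SF2 (ENSG00000149809, chr11:65111845-65116384), a sterol reductase of the later pathway, had 5.82, 5.75 and 6.55 CPM in +Met and 3.58, 4.64 and 2.63 CPM in −Met+Hcy, which rests on as few as 40 counts in a library. It was lower in each −Met+Hcy library, with a log2 fold change of −1.04 ± 0.44 (SE, edgeR adjusted p = 0.185), and without R1 −Met+Hcy replicate 3 the adjusted p was 0.00261. CYP51A1 (ENSG00000001630, chr7:92084987-92134803), the lanosterol demethylase, had 121, 137 and 148 CPM in +Met and 120.2, 126 and 119 CPM in −Met+Hcy. Its groups overlapped in CPM and separated after TMM scaling, with a log2 fold change of −0.45 ± 0.16 (SE, edgeR adjusted p = 0.117), or an adjusted p of 0.0254 without that library.

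The other 10 sterol enzymes were not called, with log2 fold changes from −0.79 for HSD17B7 to 0.17 for PMVK. Of the 18 sterol enzymes together, 15 had a log2 fold change below 0, with a median of −0.58. GGPS1, which makes the geranylgeranyl group for protein prenylation from farnesyl diphosphate, had 0.011, with a 95% interval of −0.50 to 0.52.

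Among the fatty acid enzymes, the desaturases FADS1 and FADS2 fell. The core enzymes of palmitate synthesis did not pass the test with all libraries, though FASN had a log2 fold change near that of FADS1, with a larger error. FADS1 (ENSG00000149485, chr11:61799627-61829318), which introduces the delta-5 double bond, had 23.9, 24.2 and 28.2 CPM in +Met and 15.2, 14.4 and 17 CPM in −Met+Hcy. The groups did not overlap, and the log2 fold change was −1.0 ± 0.17 (SE, edgeR adjusted p = 0.00592). FADS2 (ENSG00000134824, chr11:61792980-61867354), the delta-6 desaturase, had 7.32, 4.86 and 4.96 CPM in +Met and 2.8, 1.94 and 1.58 CPM in −Met+Hcy, from 117, 71 and 81 counts and 40, 33 and 24 counts. It had the largest fold change of the 34 genes in this comparison, −1.75 ± 0.31 (SE, edgeR adjusted p = 0.00681), and its groups did not overlap. Both were called in all 21 alternatives, with a highest adjusted p of 0.0472 for FADS1 and 0.0482 for FADS2. FADS1 and FADS2 lie on opposite strands and their annotated spans overlap, and since a strand setting was not given in the sources used here, reads from shared sequence could be assigned to either.

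FASN (ENSG00000169710, chr17:82078338-82098294) had 739, 746 and 599 CPM in +Met and 649, 382 and 275 CPM in −Met+Hcy. Replicate 1 in −Met+Hcy lay within the range of +Met in CPM and replicate 3 far below it, and the log2 fold change was −0.99 ± 0.57 (SE, edgeR adjusted p = 0.329). Its 95% interval of −2.21 to 0.24 was among the widest of the 34 genes, and without R1 −Met+Hcy replicate 3 the adjusted p was 0.0265. ACLY (ENSG00000131473, chr17:41866917-41930542) had 592, 598 and 517 CPM in +Met and 527, 524 and 466 CPM in −Met+Hcy. The groups overlapped in CPM, with a log2 fold change of −0.47 ± 0.23 (SE, edgeR adjusted p = 0.254) and an adjusted p of 0.0349 without that library.

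SCD (ENSG00000099194, chr10:100347233-100364826), which makes oleate and palmitoleate, had 284, 331 and 320.1 CPM in +Met and 399, 369 and 311 CPM in −Met+Hcy. The groups overlapped, the log2 fold change was −0.091 ± 0.17 (SE, edgeR adjusted p = 0.798), and its 95% interval of −0.45 to 0.27 excludes a decrease of the size seen in FADS1. ACSS2, ACACA and ELOVL6 were not called, with log2 fold changes from −0.43 to 0.03. ACACA, the acetyl-CoA carboxylase, varied greatly between replicates, with 25.8, 58.8 and 8.26 CPM in +Met, and it has a second entry with 10930 counts in all beside 11493 for the one used, so its values are uncertain. Of the 8 fatty acid enzymes 7 had a log2 fold change below 0, with a median of −0.45.

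The transcripts of the SREBPs and of their escort SCAP did not pass the test with all libraries. SREBF2 (ENSG00000198911, chr22:41833105-41907306) had 101, 109 and 106 CPM in HEK293T cells in +Met and 173, 126 and 99.0 CPM in −Met+Hcy. The −Met+Hcy libraries lay on both sides of the +Met libraries, and the log2 fold change was 0.03 ± 0.28 (SE, edgeR adjusted p = 0.969), with a 95% interval of −0.59 to 0.65. SREBF1 (ENSG00000072310, chr17:17810399-17837002) had 39.5, 36.3 and 32.4 CPM in +Met and 64.6, 54.2 and 43.4 CPM in −Met+Hcy. All 3 −Met+Hcy libraries were higher in CPM, but after scaling the groups overlapped, with a log2 fold change of 0.28 ± 0.45 (SE, edgeR adjusted p = 0.768). With the GC trend of each library removed and R1 −Met+Hcy replicate 3 left out, SREBF1 was called higher in −Met+Hcy, with a log2 fold change of 0.41 (edgeR adjusted p = 0.0168), opposite to the genes that fell. SCAP (ENSG00000114650, chr3:47413681-47477126) had 119.9, 106 and 106 CPM in +Met and 186, 151 and 131 CPM in −Met+Hcy, again higher in CPM, with a log2 fold change of 0.19 ± 0.33 (SE, edgeR adjusted p = 0.782). The 95% intervals of −0.71 to 1.27 for SREBF1 and −0.53 to 0.91 for SCAP leave room for a moderate change in either direction.

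Of the transport genes, ABCA1 (ENSG00000165029, chr9:104781006-104928155), which exports cholesterol to lipoproteins, had 0.501, 0.617 and 1.04 CPM in +Met and 3.09, 2.06 and 1.25 CPM in −Met+Hcy. These are low values that rest on 8, 9 and 17 counts and 44, 35 and 19 counts. Every −Met+Hcy library was above every +Met library, and the log2 fold change was 1.24 ± 0.45 (SE, edgeR adjusted p = 0.125), with an adjusted p of 0.0393 without R1 −Met+Hcy replicate 3. NPC1, which moves cholesterol out of lysosomes, had a log2 fold change of 0.24 and STARD4, a cytosolic sterol carrier, of −0.048, and neither was called.

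**Figure D3:**
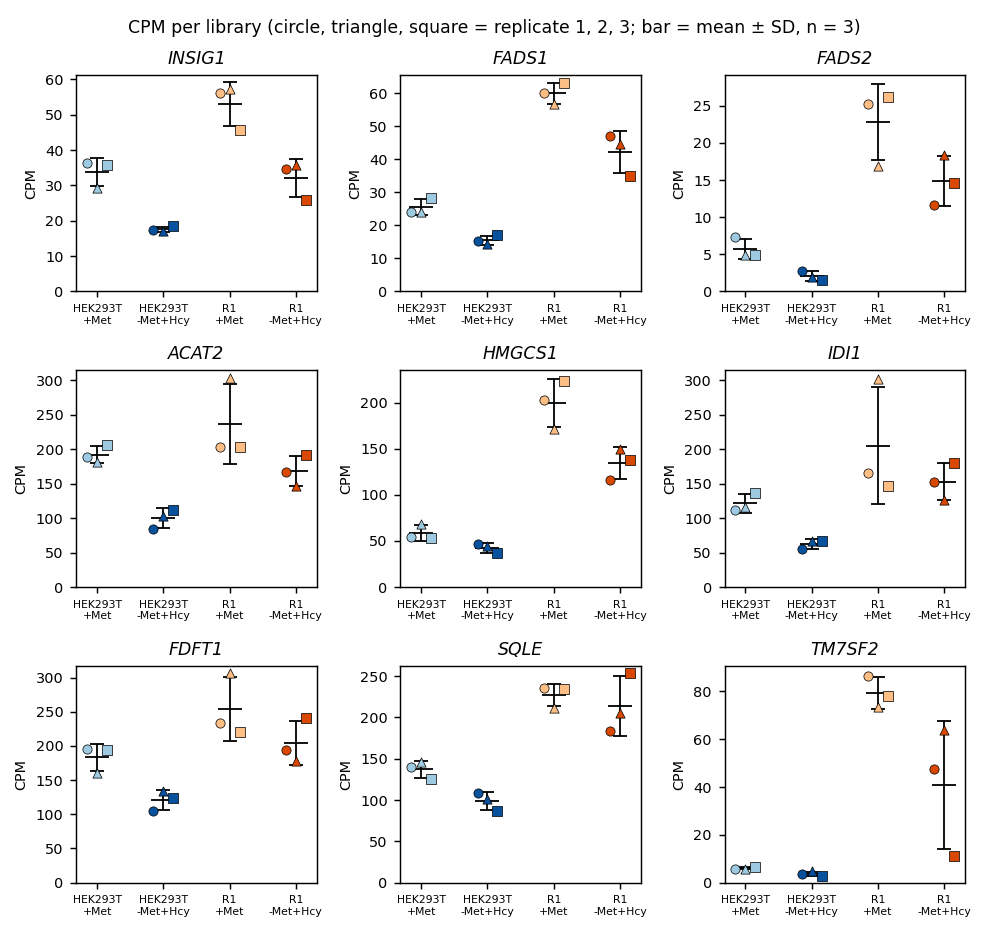
CPM per library for INSIG1, FADS1, FADS2, ACAT2, HMGCS1, IDI1, FDFT1, SQLE and TM7SF2 in the 4 groups, with replicates 1, 2 and 3 as circle, triangle and square and the mean ± SD (n = 3) as a bar. For the first 8 genes the HEK293T −Met+Hcy libraries lie below the HEK293T +Met libraries, and TM7SF2 is higher in every R1 library than in any HEK293T library.

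In R1 cells, none of the 34 genes was called between the media by edgeR's quasi-likelihood test, where 0.00583% of all genes rose and 0.0% fell. At an unadjusted p under 0.05, 9 of the 34 were lower (2.11% of all genes) and none higher, against 974 higher of all 17162 genes. DESeq2 also called 0 of the 34 (0.192% of all genes rose and 0.0408% fell). The direction was still lower in −Met+Hcy for 30 of the 34, with a median log2 fold change of −0.38 against −0.015 for all genes. After TMM scaling the groups did not overlap for 9 genes that were lower (5.72% of all genes) and for 1, ABCA1, that was higher (4.89%). Without replicate 3 of −Met+Hcy none was called either (0.0176% of all genes rose), 11 of the 34 were lower at an unadjusted p under 0.05 (2.58% of all genes), and the median was −0.29. The groups did not overlap for 12 genes that were lower (8.85%) and 1 that was higher (12.0%) when 3 libraries were set against the remaining 2.

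INSIG1 had 56.0, 57.1 and 45.8 CPM in R1 cells in +Met and 34.8, 35.7 and 25.8 CPM in −Met+Hcy. The groups did not overlap, and the log2 fold change was −0.69 ± 0.18 (SE, edgeR adjusted p = 0.622), with an unadjusted p of 0.00252 and a 95% interval of −1.09 to −0.30. FADS1 had 60.2, 56.6 and 63.1 CPM in +Met and 46.9, 44.6 and 34.9 CPM in −Met+Hcy, without overlap, and a log2 fold change of −0.47 ± 0.17 (SE, edgeR adjusted p = 0.622). HMGCS1 had 203, 172 and 224 CPM in +Met and 116, 150.1 and 137 CPM in −Met+Hcy, also without overlap, and a log2 fold change of −0.51 ± 0.18 (SE, edgeR adjusted p = 0.622). These 3 were lower in each −Met+Hcy library, though not past the threshold over all genes.

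For the other genes that fell in HEK293T cells the R1 groups overlapped after scaling, although for ACAT2 they did not overlap in CPM. FADS2 had 25.2, 16.9 and 26.2 CPM in +Met and 11.7, 18.4 and 14.7 CPM in −Met+Hcy, with a log2 fold change of −0.56 ± 0.28 (SE, edgeR adjusted p = 0.622). SQLE had 235, 212 and 235 CPM in +Met and 183, 205 and 254 CPM in −Met+Hcy, with a log2 fold change of −0.018 ± 0.19 (SE, edgeR adjusted p = 0.982) and a 95% interval of −0.44 to 0.40. IDI1 had 166, 302 and 147 CPM in +Met, where replicate 2 was far above the others, and 152, 127 and 180.1 CPM in −Met+Hcy, with a log2 fold change of −0.37 ± 0.29 (SE, edgeR adjusted p = 0.685). The same replicate was the highest of its group for ACAT2, which had 204, 304 and 203 CPM in +Met and 167, 147 and 191 CPM in −Met+Hcy, and for FDFT1, which had 233, 308 and 221 CPM in +Met and 195, 179 and 241 CPM in −Met+Hcy. Their log2 fold changes were −0.44 ± 0.24 (SE, edgeR adjusted p = 0.636) and −0.25 ± 0.23 (SE, edgeR adjusted p = 0.719). In that replicate the difference of the 34 genes from the other replicates fell with GC content (Spearman's rho −0.64, as a description), and the part of this in its high values of IDI1, ACAT2 and FDFT1 and its low value of FASN was not tested.

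MVD and TM7SF2 were lower in each R1 library in −Met+Hcy than in any in +Met, and lowest in replicate 3. MVD had 54.9, 37.3 and 48.8 CPM in +Met and 28.4, 33.4 and 9.0 CPM in −Met+Hcy, with a log2 fold change of −1.0 ± 0.35 (SE, edgeR adjusted p = 0.622), or −0.64 without replicate 3. TM7SF2 had 86.6, 73.7 and 78.1 CPM in +Met and 47.5, 63.7 and 11.2 CPM in −Met+Hcy, with a log2 fold change of −0.98 ± 0.41 (SE, edgeR adjusted p = 0.622), or −0.56 without it. FASN had 886, 438 and 844 CPM in +Met and 468, 670.1 and 64.5 CPM in −Met+Hcy. The low value of replicate 3 in −Met+Hcy and of replicate 2 in +Met leave a log2 fold change of −0.87 ± 0.56 (SE, edgeR adjusted p = 0.659), or −0.38 without replicate 3.

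The remaining named genes were spread in the same way. CYP51A1 had 187, 211 and 182 CPM in +Met and 137, 156 and 128 CPM in −Met+Hcy, without overlap, and a log2 fold change of −0.42 ± 0.16 (SE, edgeR adjusted p = 0.622). ACLY had 1014, 745 and 1036 CPM in +Met and 709.6, 881 and 378 CPM in −Met+Hcy, with a log2 fold change of −0.49 ± 0.23 (SE, edgeR adjusted p = 0.622). SCD had 455, 373 and 461 CPM in +Met and 339, 389 and 245 CPM in −Met+Hcy, with a log2 fold change of −0.38 ± 0.17 (SE, edgeR adjusted p = 0.622). ACLY was overlapping and SCD separate between the media after scaling, and in both replicate 3 was the lowest.

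Of the regulators in R1 cells, SREBF1, SREBF2 and SCAP depended on replicate 3 of −Met+Hcy. INSIG1 changed little, with a log2 fold change of −0.69 with it and −0.64 without it. SREBF1 had 62.9, 41.4 and 52.3 CPM in +Met and 57.5, 61.9 and 8.95 CPM in −Met+Hcy, with a log2 fold change of −0.31 ± 0.45 (SE, edgeR adjusted p = 0.81) that became 0.15 without replicate 3. SREBF2 had 330.0, 213 and 311 CPM in +Met and 227, 322 and 115 CPM in −Met+Hcy, with −0.35 ± 0.28 (SE, edgeR adjusted p = 0.689), or −0.092 without it. SCAP had 189, 129.5 and 168 CPM in +Met and 147, 176 and 45.3 CPM in −Met+Hcy, with −0.41 ± 0.33 (SE, edgeR adjusted p = 0.694), or −0.045. In all 3 genes replicates 1 and 2 in −Met+Hcy lay within the range of +Met in CPM. ABCA1 had 2.38, 1.52 and 3.0 CPM in +Met and 3.94, 4.09 and 2.82 CPM in −Met+Hcy, with a log2 fold change of 0.69 ± 0.43 (SE, edgeR adjusted p = 0.642).

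Whether the lines responded differently to the medium was tested directly as the R1 response minus the HEK293T response. None of the 34 genes was called by edgeR's quasi-likelihood test, where 0.0% of all genes were higher and 0.0583% lower. DESeq2 called none of them either, with 0.524% of all genes higher and 0.903% lower. At an unadjusted p under 0.05, 4 of the 34 were higher (4.62% of all genes), with log2 fold changes less negative in R1 than in HEK293T cells. None of the 34 was lower, against 866 lower of all 17162 genes. The 4 genes are those that follow. They were FADS2, with a difference of 1.19 ± 0.41 (SE, edgeR adjusted p = 0.396), SQLE with 0.75, ACAT2 with 0.80 and FADS1 with 0.53. The 95% interval of the difference was 0.29 to 2.09 for FADS2 and −0.017 to 1.11 for INSIG1, so that these data show neither equal nor unequal responses. Without R1 −Met+Hcy replicate 3 again 0 of the 34 were called (0.398% of all genes were higher and 1.29% lower) and 5 were higher at an unadjusted p under 0.05 (7.29%).

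Between the lines in +Met, R1 cells had higher levels of 6 of the 34 genes and lower levels of none, against 5.69% higher and 4.48% lower over all genes. None was lower at an unadjusted p under 0.05 either (12.5% of all genes), and DESeq2 called 9 higher (8.85%) and 0 lower (7.95%). The 6 were HMGCS1 and TM7SF2 of the sterol pathway, FADS1 and FADS2, SREBF2 and NPC1. A log2 fold change over 1 was also met by 4 of them, against 4.71% of all genes. The log2 fold change was above 0 for 30 of the 34, with a median of 0.43 against 0.019 for all genes. After TMM scaling the lines did not overlap for 16 genes that were higher in R1 (22.2% of all genes) and 1 that was lower, MVK (20.7%). In CPM the first number was 28 (38.1% of all genes). Without R1 −Met+Hcy replicate 3, which does not enter this comparison, 15 of the 34 were higher, against 17.1% of all genes, and none lower (15.7%), and 7 were higher with a log2 fold change over 1 (8.97%).

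TM7SF2 differed most. Its 86.6, 73.7 and 78.1 CPM in R1 cells in +Met stood against 5.82, 5.75 and 6.55 CPM in HEK293T cells, and no R1 library in either medium reached down to a HEK293T library. The log2 fold change between the lines in +Met was 3.36 ± 0.45 (SE, edgeR adjusted p = 0.00111). HMGCS1 had a log2 fold change of 1.41 ± 0.18 (SE, edgeR adjusted p = 0.000979), with every R1 library above every HEK293T library. FADS2 had 1.63 ± 0.29 (SE, edgeR adjusted p = 0.00502) and FADS1 0.88 ± 0.17 (SE, edgeR adjusted p = 0.00683), again without overlap. These 4 genes were called in all 21 alternatives.

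SREBF2 had 330.0, 213 and 311 CPM in R1 cells in +Met against 101, 109 and 106 CPM in HEK293T cells. The groups did not overlap, the log2 fold change was 1.08 ± 0.29 (SE, edgeR adjusted p = 0.0338), and it was called in 14 of the 21 alternatives. NPC1 had 61.3, 53.2 and 76.1 CPM against 32.3, 34.1 and 27.2 CPM, with a log2 fold change of 0.67 ± 0.18 (SE, edgeR adjusted p = 0.0336), and was called in 12. SREBF1 had 0.17 ± 0.45 (SE, edgeR adjusted p = 0.857), SCAP 0.19 ± 0.33 (SE, edgeR adjusted p = 0.767) and INSIG1 0.29 ± 0.18 (SE, edgeR adjusted p = 0.342). The libraries of INSIG1 did not overlap between the lines in CPM, with R1 higher, and they did after scaling.

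Between the lines in −Met+Hcy, 9 of the 34 genes were higher in R1 cells and none lower, against 7.2% higher and 6.76% lower over all genes. Again none was lower at an unadjusted p under 0.05 (14.5% of all genes), and DESeq2 called 12 higher (10.6%) and 0 lower (10.1%). They were the sterol enzymes HMGCS1, IDI1, FDFT1, SQLE, TM7SF2 and HSD17B7, the desaturases FADS1 and FADS2, and INSIG1. With a log2 fold change over 1 there were 7, against 5.29% of all genes. This comparison shares its HEK293T libraries with the medium comparison in HEK293T cells, so a gene that was low in those libraries enters both. HMGCS1, TM7SF2, FADS1 and FADS2 were called here and in +Met, which is 4 of the 6 called in +Met and 4 of the 9 called in −Met+Hcy. The median log2 fold change of the 34 was 0.63 against −0.008 for all genes. After TMM scaling 15 genes were higher in R1 without overlap (13.6% of all genes) and none lower (18.9%). Without R1 −Met+Hcy replicate 3, 16 of the 34 were higher, against 15.7% of all genes, and none lower (14.6%). With a log2 fold change over 1 there were then 8 (8.63%), and 24 were higher without overlap (28.0%) and none lower (27.5%).

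FADS2, with 11.7, 18.4 and 14.7 CPM in R1 cells against 2.8, 1.94 and 1.58 CPM in HEK293T cells, had a log2 fold change of 2.82 ± 0.31 (SE, edgeR adjusted p = 0.000251). TM7SF2 had 3.42 ± 0.46 (SE, edgeR adjusted p = 0.000748), or 3.83 without replicate 3, and HMGCS1 1.65 ± 0.19 (SE, edgeR adjusted p = 0.000279). IDI1 had 152, 127 and 180.1 CPM in R1 cells against 54.6, 66.2 and 66.5 CPM in HEK293T cells, with a log2 fold change of 1.29 ± 0.30 (SE, edgeR adjusted p = 0.0134). All these R1 libraries lay above all the HEK293T libraries. SQLE followed with 1.13 ± 0.20 (SE, edgeR adjusted p = 0.00303), HSD17B7, a reductase of the later sterol pathway, with 1.19 ± 0.31 (SE, edgeR adjusted p = 0.0254) and INSIG1 with 0.84 ± 0.19 (SE, edgeR adjusted p = 0.011). FDFT1 had 0.77 ± 0.23 (SE, edgeR adjusted p = 0.0481), the weakest of the 9, and was called in 6 of the 21 alternatives and not without replicate 3. SREBF1 and SCAP lay on the other side of 0, at −0.41 and −0.41, and at 0.048 and −0.046 without that library. SREBF2 had 0.69 ± 0.29 (SE, edgeR adjusted p = 0.126) and was called in 3 of the 21 alternatives. Without replicate 3 its log2 fold change was 0.96 (edgeR adjusted p = 0.0067).

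**Figure D4:**
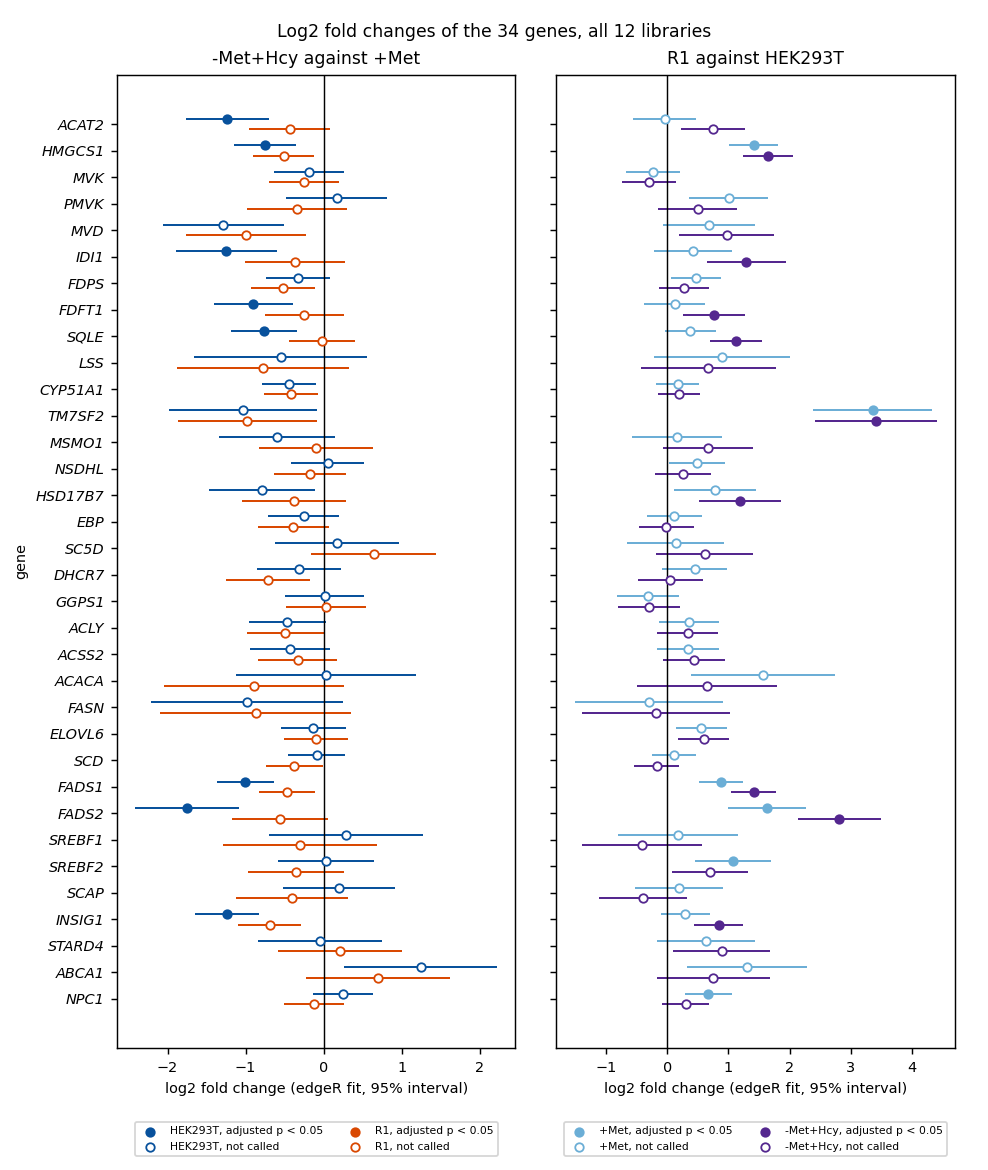
Log2 fold changes of the 34 genes with 95% intervals from the edgeR model over 12 libraries, for −Met+Hcy against +Met in each line (left) and for R1 against HEK293T in each medium (right), filled where the adjusted p was under 0.05. On the left 8 genes are called in HEK293T cells and none in R1 cells, and on the right 6 are called in +Met and 9 in −Met+Hcy, all higher in R1.

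Set beside each other, the medians of the sterol enzymes and of the fatty acid enzymes lay in overlapping ranges in HEK293T cells in −Met+Hcy. Those of the SREBP regulators lay higher there, although INSIG1 among them fell. Relative to the mean of HEK293T cells in +Met, the median of the 18 sterol enzymes was −0.60, −0.54 and −0.43 in the HEK293T libraries in −Met+Hcy, and that of the 8 fatty acid enzymes was −0.38, −0.58 and −0.42, on the log2 scale. In R1 cells in +Met the sterol medians were 0.44, 0.54 and 0.22 and the fatty acid medians 0.45, 0.47 and 0.47. In R1 cells in −Met+Hcy the sterol medians were 0.004, 0.066 and −0.032, near the mean of HEK293T cells in +Met. Single enzymes lay far from it on both sides, such as TM7SF2 at 2.56, 2.98 and 0.75 and LSS at 0.64, 0.56 and −2.08. The last value of each is replicate 3, whose deviation followed GC content. The fatty acid medians of R1 cells in −Met+Hcy were 0.28, 0.27 and −0.05, the last in replicate 3. For the 4 regulators the HEK293T libraries in −Met+Hcy gave 0.38, 0.06 and −0.15, on both sides of 0, and replicate 3 of R1 in −Met+Hcy gave −0.97. The median hides INSIG1, which lay at −1.31, −1.28 and −1.09 in the HEK293T libraries in −Met+Hcy, below the medians of both enzyme lists. These medians describe the lists and carry no test.

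**Figure D5:**
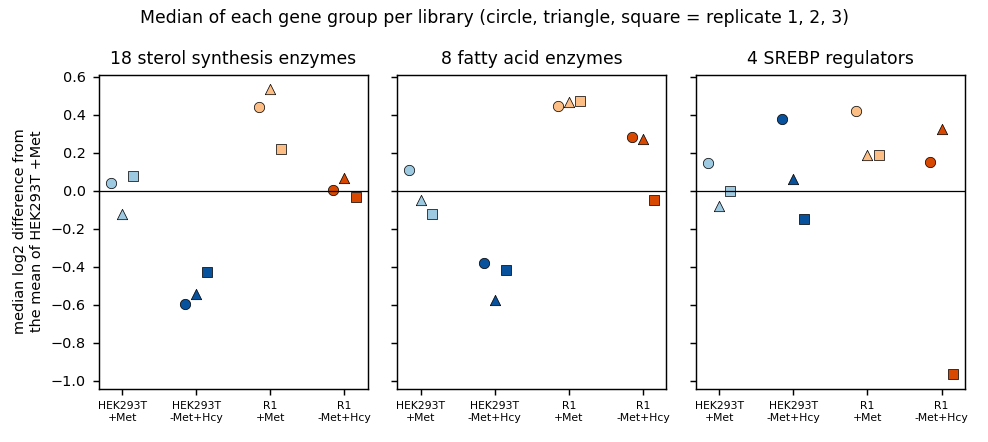
Median log2 difference from the mean of HEK293T +Met, per library, for the 18 sterol enzymes, the 8 fatty acid enzymes and the 4 SREBP regulators, with replicates 1, 2 and 3 as circle, triangle and square. The sterol and fatty acid medians of HEK293T −Met+Hcy lie between −0.60 and −0.38, those of R1 +Met between 0.22 and 0.54, and the regulators of R1 −Met+Hcy replicate 3 at −0.97.

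Other genes of these pathways were counted in the HEK293T medium comparison as well. Of 12 genes of fatty acid activation and elongation 4 fell and none rose, with a median log2 fold change of −0.64, where 2.78% of all genes fell and 4.25% rose. They were the elongases ELOVL1 (−0.87 ± 0.20 (SE, edgeR adjusted p = 0.0217)) and ELOVL5 (−0.69 ± 0.15 (SE, edgeR adjusted p = 0.0155)) and the acyl-CoA synthetases ACSL1 (−0.66 ± 0.18 (SE, edgeR adjusted p = 0.0469)) and ACSL4 (−0.94 ± 0.25 (SE, edgeR adjusted p = 0.0438)). Of 10 genes of sterol handling 1 fell, NR1H3, a nuclear receptor for oxysterols, with a log2 fold change of −1.40 ± 0.24 (SE, edgeR adjusted p = 0.00609). Of 7 genes of SREBP processing and 8 of isoprenoid use 0 were called. With R1 −Met+Hcy replicate 3 left out these counts were 7 lower of 12, 1 lower of 10, 2 higher of 7 (ERLIN1 and ERLIN2), and 3 higher and 1 lower of 8, against 12.5% of all genes lower and 15.2% higher.

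In R1 cells none of the 4 lists had a called gene between the media, nor had they in the difference of the responses, with or without that library. Between the lines in +Met, SCD5, a second stearoyl-CoA desaturase, was higher in R1 with 3.07 ± 0.36 (SE, edgeR adjusted p = 0.000474), and NUS1, a subunit of the dolichol-forming prenyltransferase, was lower with −0.58 ± 0.16 (SE, edgeR adjusted p = 0.0364). In −Met+Hcy, SCD5, FADS3 and NR1H3 were higher in R1 and NUS1 and FNTB lower. These are 1 higher and 1 lower of the 37 genes of the 4 lists in +Met, against 5.69% and 4.48% of all genes, and 3 higher and 2 lower in −Met+Hcy, against 7.2% and 6.76%. Leaving out R1 −Met+Hcy replicate 3, they were 6 higher and 6 lower in +Met, against 17.1% and 15.7% of all genes, and 9 higher and 6 lower in −Met+Hcy, against 15.7% and 14.6%. SCD5 thus differed between the lines in both media, beside the member SCD, whose log2 fold changes between the lines were 0.11 in +Met and −0.18 in −Met+Hcy.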

How the data were processed

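RNA of 12 libraries (HEK293T and R1, 12 h in +Met or −Met+Hcy, 3 each) was sequenced by the authors. According to the methods and the submitters' processing notes, the authors quantified reads with kallisto 0.48.0 against GRCh38, then summed the estimated counts per Ensembl gene and made them whole numbers, deposited unscaled. The strand setting and the annotation release are not given in the sources used here. MB468 and R8 libraries are not analysed here.

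Groups came from the labels, and none of the columns belonged to other samples. Of the 23500 genes, 868 without a symbol were kept. Genes with a summed count of at least 10 were tested in R 4.3.3 with edgeR 4.0.16 (TMM, quasi-likelihood, 1 mean per group, 8 residual degrees of freedom), with Benjamini-Hochberg adjustment. Standard errors were derived from the fold change and its F statistic, and intervals are 95%. Log2 CPM used a prior count of 2, and levels per kilobase used the canonical transcript of GENCODE. Library totals set the precision of low genes. With 3 libraries a group, a change of several standard errors could go uncalled. INSIG1 between the media in R1 cells was such a case, at −0.69 ± 0.18 (SE, edgeR adjusted p = 0.622). Promoter windows came from RefSeq.

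The members and lists were chosen with earlier results of these data known. Values per library are given for each member called in a medium comparison or their difference, with or without R1 −Met+Hcy replicate 3, and for SREBF1, SREBF2, SCAP, INSIG1, FASN, SCD and ABCA1. NPC1 and ACACA were added after their values were seen. The alternatives were RLE scaling, DESeq2 1.42.0, other filters, only the libraries compared, a replicate block, a fold threshold, removal of each library's GC trend (loess, span 0.3), leaving out libraries and, chosen after the data were seen, adding the entries of 1 symbol and counting non-overlapping groups without R1 −Met+Hcy replicate 3 (scaling factors kept). The procedure was tested on simulated data whose means and spread came from the libraries without R1 −Met+Hcy replicate 3. The deviation of that library was therefore not part of the simulation.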

Additional observations from a re-analysis of the deposited data

How the results depend on the processing

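The number of the 34 genes called between the media in HEK293T cells was 8 (7.03% of all genes tested), and it was 16 with only the libraries compared (34.2%), 17 with the GC trend removed and R1 −Met+Hcy replicate 3 left out (30.9%), 5 with a log2 fold change beyond 1 and 3 to 14 leaving out 1 library at a time (1.7 to 27.7%). Of the 17, 15 fell and SREBF1 and ABCA1 rose. It was 3 or 4 without any 1 of the 6 HEK293T libraries, 5 without R1 +Met replicate 1 and 14 without R1 −Met+Hcy replicate 3. Between the lines all called members were higher in R1 in every analysis, and they were 6 in +Met (5.69% of all genes higher), 11 with the GC trend removed (10.5%), 18 with that and replicate 3 left out (19.1%), 14 with only the libraries compared (16.7%) and 4 to 15 leaving out libraries (2.51 to 17.1%). In −Met+Hcy they were 9 (7.2%), and in the same order 17 (14.1%), 19 (16.4%), 4 (1.67%) and 5 to 16 (3.18 to 15.7%), with 5 without HEK293T −Met+Hcy replicate 2. In R1 cells and in the difference of the responses it was 0 in every analysis run. The cause of these shifts was not tested.

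Leaving out libraries, the sterol median ran from −0.48 to −0.22 between the media in R1 cells (−0.39 with all), from −0.011 to 0.19 in the difference of the responses (0.15) and from 0.53 to 0.77 between the lines in −Met+Hcy (0.66). Leaving out libraries, the fatty acid median ran from −0.59 to −0.33 between the media in R1 cells (−0.48 with all), from −0.16 to 0.24 in the difference of the responses (0.068) and from 0.36 to 0.58 between the lines in −Met+Hcy (0.51). With the GC trend removed the fatty acid median of the difference was 0.22, and with replicate 3 also left out it was 0.25, with −0.33 between the media in R1 cells.

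Of 1318 values under an alternative, for the members and comparisons printed with their own values, 1197 kept direction and call, 79 lost the call, 30 gained it and 12 changed sign, none of them called. SREBF2 changed sign between the media in HEK293T cells without HEK293T −Met+Hcy replicate 1, at −0.17. Between the media in R1 cells, leaving out libraries, IDI1 ran from −0.61 to 0.056, SQLE from −0.27 to 0.12 and SREBF1 from −0.65 to 0.15. With the GC trend removed FADS2 was at 0.088, SCAP at 0.036 and SREBF1 at 0.040 there, and SREBF1 at 0.18 with replicate 3 also left out. Between the lines SREBF1 was at −0.012 and −0.015 in +Met under these 2 settings, and ran from −0.76 to 0.048 in −Met+Hcy leaving out libraries. With the replicate number as a block, the counts were 4 in HEK293T cells (3.6% of all genes called), 0 in R1 cells, 0 in the difference, 4 between the lines in +Met (3.94% higher) and 8 in −Met+Hcy (4.87%). Same-numbered libraries correlated from −0.72 to 0.60 in their deviations from group means, 6 of 18 pairs were over 0.1, and 5 of 12 libraries correlated best with their own number, so the numbers were taken only as names.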
